A study of Mus musculus with 8 samples.

Results

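The expression of 10 genes of the transforming growth factor beta (TGF-beta) system was followed by RNA sequencing in mouse cardiac fibroblasts through 21 days in osteogenic differentiation medium. They were the ligand genes Tgfb1, Tgfb2 and Tgfb3, the receptor genes Tgfbr1, Tgfbr2 and Tgfbr3, the latent TGF-beta binding protein genes Ltbp1, Ltbp2 and Ltbp3, and the inhibitor gene Smad7. Members were taken by gene symbol, with no threshold on their values, and all 10 were found among the 24015 symbols of the deposited table. All 10 also passed the filter on low values, which left 13527 genes in the tests. Cells were from wild-type C57BL/6J mice with an age of 8 weeks, and RNA was taken from them untreated (day 0) and on days 7, 14 and 21 of the medium, with 2 libraries for each time. Since nothing in the labels ties the replicates to separate cultures or animals, their spread may be technical, and p-values measure that spread alone. Untreated cells were sequenced at day 0 only, so effects of the medium and of days in culture cannot be told apart. In a bulk sample, fewer cells of a type and less RNA per cell cannot be told apart either.

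TGF-beta is secreted as a latent complex in which its own propeptide stays wrapped around the mature dimer. Most cells tether that complex to fibrillin and fibronectin in the matrix through a latent TGF-beta binding protein, and integrins or proteases release the ligand from it. Free ligand binds the type II receptor, which phosphorylates the type I receptor, which in turn phosphorylates SMAD2 and SMAD3, and these enter the nucleus with SMAD4. The type III receptor, betaglycan, has no kinase of its own and presents ligand, TGF-beta2 above all, to the signalling receptors. In cardiac fibroblasts the pathway is known for driving the contractile, collagen-producing myofibroblast state.

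Levels are normalized counts, that is, reads per gene divided by a size factor for the library, and they carry no correction for transcript length. Libraries held 13399313 to 21883498 reads assigned to genes, and the members drew 230 to 9454 reads each in every library. All 8 fibroblast markers were measured. At day 7 against day 0, 5 were higher and 3 (Col1a1, Col1a2 and Thy1) lower, beside 27.5% and 27.9% of all tested genes. The fibroblast markers summed to 428751 and 435195 normalized counts on day 0, 210317 and 222362 on day 7, 164430 and 128151 on day 14, and 189046 and 234688 on day 21. Col1a1 alone was 242711 and 257184 on day 0 and 64015 and 73190 on day 7. Macrophage markers were higher at day 7 than at day 0 in 10 of 10 cases, beside 27.5% of all tested genes. Their summed level was 1182 and 1260.4 normalized counts on day 0, 12158 and 9855 on day 7, 20767 and 38896 on day 14, and 20590.3 and 20692 on day 21. Endothelial markers summed to 317 and 463 normalized counts at day 21, against 697 and 739 at day 0. Most of the day 21 sum was Tek, at 239.2 and 345.3, which lay on either side of its 245.2 and 252.3 at day 0. Of the 7 endothelial markers tested, 5 were lower at day 21 than at day 0, none was higher and 2 did not pass the test. Of all tested genes, 29.5% were lower and 29.8% higher in that comparison. Cdh5 had a mean of 179.9 at day 0 and 5.49 at day 21. Of the cardiomyocyte markers, Myh6 had no read in any library. Their summed level, nearly all of it Tnnt2, was 1213 and 1137 normalized counts on day 0, 11752 and 11090 on day 7, 22452 and 28811 on day 14, and 10595 and 5868 on day 21. Mural markers summed to 842 and 876 normalized counts on day 0, 2769 and 2637 on day 7, 1075 and 798 on day 14, and 1187 and 2784 on day 21. Most of this was Notch3, at 736 and 744 on day 0 and 2623 and 2511 on day 7. Of the 6 mural markers, 3 were higher at day 7 than at day 0, while Rgs5, Cspg4 and Des did not pass the test. At day 21 against day 0, 4 were higher and 2 lower, beside 29.8% and 29.5% of all tested genes. Mesothelial markers summed to 1139 and 1028 normalized counts on day 0, 1049 and 995 on day 7, 2008 and 2122 on day 14, and 1125 and 485 on day 21. Their sum joins genes that went opposite ways. At day 7 against day 0, 2 of the 5 were higher and 2 lower, beside 27.5% and 27.9% of all tested genes. Msln had a mean of 19.4 at day 0 and 402 at day 7, and Upk3b had 832 and 385. The part of these other cell types in the changes of the members was not tested. Replicates lay farther apart on days 14 and 21, with a chi-square per degree of freedom between them of 4.91 on day 0, 3.48 on day 7, 19 on day 14 and 18.6 on day 21.

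**Figure D1:**
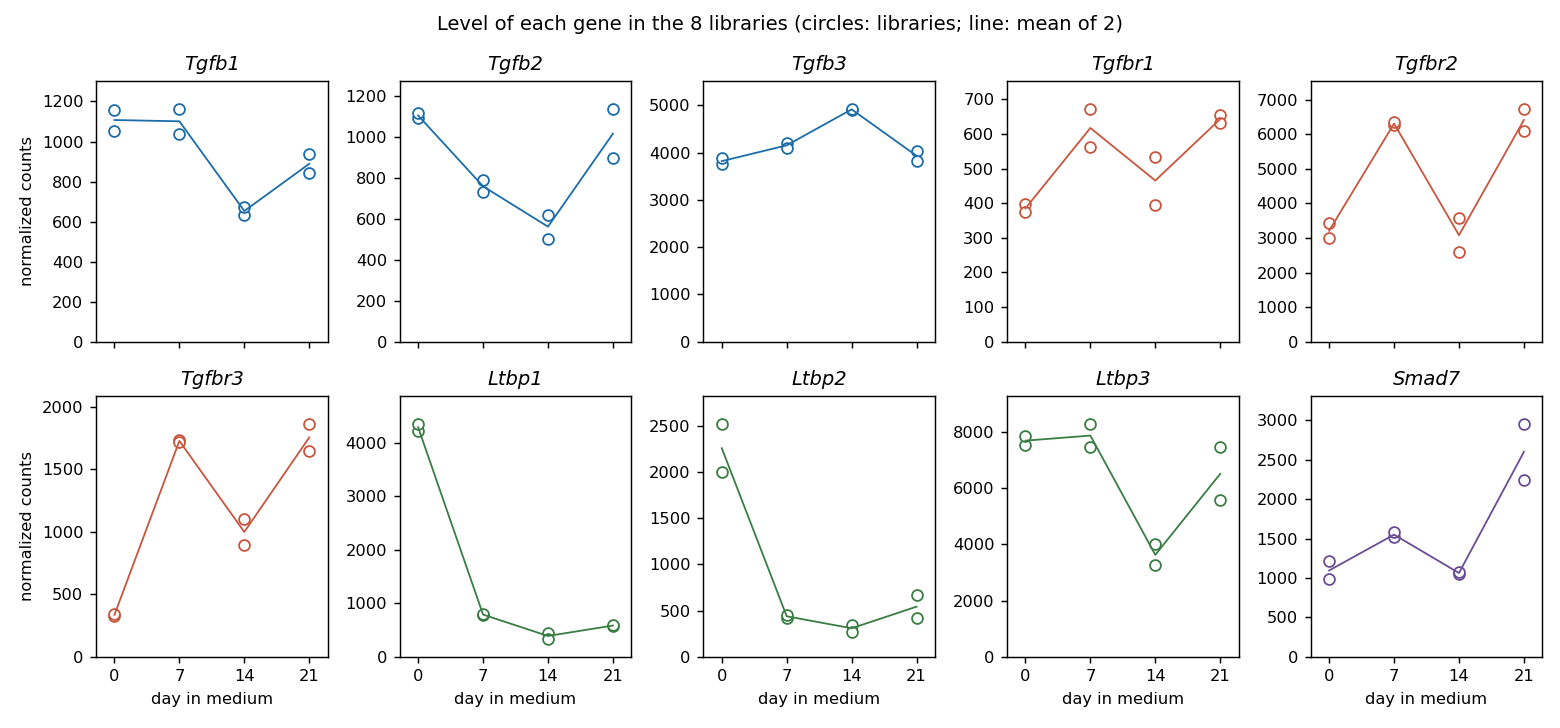
Normalized counts of the 10 genes (vertical axes, each from 0) against the day in the medium (horizontal axes), with a circle for each of the 8 libraries and a line through the mean of 2 libraries. Ltbp1 and Ltbp2 drop after day 0 and stay low, Tgfbr3 is lowest at day 0, and 9 of the 10 genes have a lower mean at day 14 than at day 7.

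Among the ligand genes, Tgfb1 and Tgfb2 had their lowest levels at day 14, and Tgfb3 had its highest there. Tgfb1, the isoform best known as the driver of fibrosis, measured 1055 and 1160 normalized counts on day 0, 1039 and 1163 on day 7, 635 and 671 on day 14, and 841 and 937 on day 21. The day 0 and day 7 libraries overlapped, both day 14 libraries were below all others, and day 21 lay between. The log2 difference between day 7 and day 0 was -0.01 (limma, adjusted p = 0.95). At day 14 Tgfb1 was lower than at day 0 by a log2 difference of -0.76 (SE 0.11, limma adjusted p = 3.67e-05). At day 21 it was still lower than at day 0, by -0.32 (SE 0.11, limma adjusted p = 0.0206), a call that was lost without day 0 replicate 2 (adjusted p = 0.162) or day 21 replicate 1 (adjusted p = 0.116).

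Tgfb2, whose product needs betaglycan for efficient binding to the type II receptor, measured 1093 and 1119 normalized counts on day 0, 790 and 730.2 on day 7, 621 and 504 on day 14, and 896 and 1138 on day 21. The first 3 times did not overlap and stood in descending order, and the day 21 libraries straddled those of day 0. Day 7 was below day 0 by a log2 difference of -0.54 (SE 0.13, limma adjusted p = 0.00397) and day 14 below day 0 by -0.98 (SE 0.13, limma adjusted p = 2.82e-05). The difference between day 21 and day 0 was -0.13 and did not pass the test (limma, adjusted p = 0.411).

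Tgfb3, the third isoform, measured 3752 and 3891 normalized counts on day 0, 4203 and 4108 on day 7, 4908 and 4925 on day 14, and 4038 and 3829 on day 21. Both day 14 libraries were above all others. Against day 0, Tgfb3 rose at day 14 by a log2 difference of 0.36 (SE 0.09, limma adjusted p = 0.00227), and it did not pass the test at day 7 (0.12, adjusted p = 0.253) or day 21 (0.04, adjusted p = 0.698).

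The promoters of Tgfb1 and Tgfb2, the ligand genes that took separate courses between day 0 and day 7, are shown to set their core elements side by side. Each sequence is the 250 bases before the RefSeq start on GRCm38.p6, at chr7:25686752-25687001 on the plus strand for Tgfb1 and chr1:186705990-186706239 on the minus strand for Tgfb2, and capitals mark a GC box or a TATA box.
Tgfb1: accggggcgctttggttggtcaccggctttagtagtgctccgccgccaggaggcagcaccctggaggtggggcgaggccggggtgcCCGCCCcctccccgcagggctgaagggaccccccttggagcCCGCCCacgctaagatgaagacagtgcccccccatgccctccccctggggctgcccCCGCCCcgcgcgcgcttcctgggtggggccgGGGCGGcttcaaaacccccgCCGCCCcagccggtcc
Tgfb2: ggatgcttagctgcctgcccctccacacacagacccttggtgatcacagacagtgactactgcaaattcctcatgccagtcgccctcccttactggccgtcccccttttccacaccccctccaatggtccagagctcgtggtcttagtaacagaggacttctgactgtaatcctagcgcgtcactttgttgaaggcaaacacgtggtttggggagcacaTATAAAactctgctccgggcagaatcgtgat
Tgfb1 held 5 copies of the GC box (GGGCGG, read on both strands), the nearest beginning at position -16 from the start, and no TATA box (TATAAA). Tgfb2 held no GC box and a TATA box beginning at position -31. Among 32851 promoter windows of the same length, 32.7% held a GC box and 12.4% a TATA box. GC content was 75.2% in the Tgfb1 window and 53.6% in the Tgfb2 window. Promoter windows were found for 7 of the 10 members. None of them held the SMAD palindrome (GTCTAGAC), the CAGA box (AGCCAGACA), the AP-1 site (TGANTCA) or the full glucocorticoid element, which occurred in 0.167%, 0.301%, 6.75% and 0.00913% of all windows.

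All 3 receptor genes were higher at day 7 than at day 0, Tgfbr3 by the most. Tgfbr3, which encodes betaglycan, measured 326 and 345 normalized counts on day 0, 1734 and 1717 on day 7, 1101 and 895 on day 14, and 1646 and 1861 on day 21. The libraries of every later time lay far above both day 0 libraries, and the day 7 and day 21 libraries overlapped. The mean was 1726 ± 12.2 at day 7 against 336 ± 13.2 at day 0 (SD, n = 2 each), a 5.13-fold rise with a log2 difference of 2.36 (SE 0.11, limma adjusted p = 6.04e-09). Against the same day 0 libraries it was 2.95-fold higher at day 14 (adjusted p = 1.35e-07) and 5.20-fold higher at day 21 (adjusted p = 3.89e-09).

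Tgfbr2, the ligand-binding type II kinase, measured 2998 and 3420.2 normalized counts on day 0, 6273 and 6344 on day 7, 3581 and 2582 on day 14, and 6092 and 6731 on day 21. Days 7 and 21 stood together at the high level, and the day 14 libraries lay on either side of those of day 0. It rose 1.97-fold at day 7 over day 0, a log2 difference of 0.98 (SE 0.14, limma adjusted p = 6.43e-05), and was 2.00-fold higher at day 21 than at day 0 (adjusted p = 4.5e-05). The day 14 difference from day 0 was -0.07 (limma, adjusted p = 0.636). It was -0.31 without day 14 replicate 1 (adjusted p = 0.0219) and 0.16 without day 14 replicate 2 (adjusted p = 0.212), and 0.52 once the trend with transcript length and GC content had been removed (adjusted p = 0.000322).

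Tgfbr1, the type I kinase that phosphorylates SMAD2 and SMAD3, measured 396 and 374 normalized counts on day 0, 672 and 563 on day 7, 535 and 396 on day 14, and 656 and 630.3 on day 21. Both day 7 and both day 21 libraries were above day 0, and day 14 replicate 2 fell between the day 0 libraries. The gene rose 1.60-fold at day 7 (log2 difference 0.67, SE 0.14, limma adjusted p = 0.00163) and was 1.67-fold higher at day 21 than at day 0 (0.74, adjusted p = 0.000747). At day 14 the difference from day 0 was 0.26 and did not pass the test (limma, adjusted p = 0.126). It passed without day 14 replicate 2 (0.47, adjusted p = 0.00604) and with the length and GC trend removed (0.42, adjusted p = 0.00236).

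The latent binding protein genes divided into a pair that fell steeply in the first week, Ltbp1 and Ltbp2, and Ltbp3, which did not. Ltbp1, whose product binds the latent complex covalently and anchors it in the matrix, measured 4225 and 4346 normalized counts on day 0, 776 and 799.7 on day 7, 438 and 339 on day 14, and 574 and 592 on day 21. No later library came near those of day 0, and the 4 times did not overlap. The mean was 788 ± 16.7 at day 7 against 4285 ± 85.8 at day 0 (SD, n = 2 each). That is a 5.43-fold fall, a log2 difference of -2.44 (SE 0.12, limma adjusted p = 5.74e-09). Against the same day 0 libraries Ltbp1 was 11.1-fold lower at day 14 (adjusted p = 2.07e-10) and 7.34-fold lower at day 21 (adjusted p = 9.54e-10).

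Ltbp2, a microfibril protein of the same family that does not bind latent TGF-beta, measured 1997 and 2521 normalized counts on day 0, 419.9 and 457 on day 7, 349 and 269 on day 14, and 422 and 664 on day 21. The later times were all below day 0, and days 7 and 21 overlapped. It was 5.11-fold lower at day 7 than at day 0 (log2 difference -2.35, SE 0.19, limma adjusted p = 7.01e-07), 7.30-fold lower at day 14 than at day 0 (adjusted p = 6.64e-08) and 4.23-fold lower at day 21 than at day 0 (adjusted p = 1.6e-06). The strand of the libraries is not given in the sources used here, and 9.34% of the exon bases of Ltbp2 are shared with the antisense gene D030025P21Rik, which had 411 reads over all libraries, so a small part of its reads is of uncertain origin.

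Ltbp3, which also binds the latent complex, measured 7527 and 7854 normalized counts on day 0, 7459 and 8281 on day 7, 3997 and 3256 on day 14, and 5572 and 7448 on day 21. Days 0 and 7 overlapped, day 14 was below every other library, and the 2 day 21 libraries lay far apart. The difference between day 7 and day 0 was 0.03 (limma, adjusted p = 0.859). At day 14 the gene was 2.13-fold lower than at day 0 (log2 difference -1.09, SE 0.14, limma adjusted p = 1.72e-05), and with the length and GC trend removed the difference was -0.49 (adjusted p = 0.000437). The day 21 difference from day 0, -0.26, did not pass the test (limma, adjusted p = 0.131). It was -0.46 without day 21 replicate 2 (adjusted p = 0.0133) and -0.04 with the trend removed (adjusted p = 0.705).

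The promoters of Ltbp1 and Ltbp2, the members that fell together, are given for comparison, again as the 250 bases before the RefSeq start on GRCm38.p6 with GC boxes in capitals. They lie at chr17:75005279-75005528 on the plus strand for the first of the 2 starts of Ltbp1 and at chr12:84876492-84876741 on the minus strand for Ltbp2.
Ltbp1: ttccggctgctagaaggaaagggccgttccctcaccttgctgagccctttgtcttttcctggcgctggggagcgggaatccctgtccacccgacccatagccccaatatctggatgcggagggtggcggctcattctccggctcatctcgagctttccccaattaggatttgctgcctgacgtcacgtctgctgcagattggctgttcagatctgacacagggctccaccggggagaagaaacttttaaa
Ltbp2: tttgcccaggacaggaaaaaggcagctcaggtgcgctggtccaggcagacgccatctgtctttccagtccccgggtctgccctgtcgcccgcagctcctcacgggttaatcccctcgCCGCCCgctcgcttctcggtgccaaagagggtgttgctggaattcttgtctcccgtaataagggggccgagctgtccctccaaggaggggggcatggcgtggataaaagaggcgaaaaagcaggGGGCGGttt
The Ltbp2 window held 2 GC boxes, beginning at positions -133 and -9 from the start. The Ltbp1 window held none of the motifs searched, and the same was true of its other start.

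Smad7, which encodes an inhibitory SMAD that brings ubiquitin ligases to the type I receptor and is itself a target of the pathway, measured 1209 and 981 normalized counts on day 0, 1513 and 1585 on day 7, 1051 and 1074 on day 14, and 2245 and 2952 on day 21. Both day 21 libraries were above all others, day 7 was above day 0, and the day 14 libraries lay between those of day 0. The rise at day 7 over day 0 was 1.42-fold (log2 difference 0.51, SE 0.13, limma adjusted p = 0.00619), and without day 0 replicate 2 it was 0.36 and did not pass the test (adjusted p = 0.0955). At day 21 the mean was 2599 ± 500 normalized counts, against 1095 ± 162 at day 0 (SD, n = 2 each), a 2.36-fold rise (log2 difference 1.24, SE 0.13, limma adjusted p = 5.56e-06). The day 14 difference from day 0 was -0.04 (limma, adjusted p = 0.822), and it was 0.27 with the length and GC trend removed (adjusted p = 0.0299).

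Over the first week, 4 members rose (Tgfbr1, Tgfbr2, Tgfbr3 and Smad7), 3 fell (Tgfb2, Ltbp1 and Ltbp2) and 3 did not pass the test. Of all tested genes, 55.4% were called between day 7 and day 0, 27.5% higher and 27.9% lower, so a count of 7 in 10 is not far from the background. The sizes were spread widely around a median of 0.08, beside -0.01 for all tested genes. A change of at least 2-fold was called higher in 1 member (Tgfbr3), beside 11.9% of all tested genes, and lower in 2 (Ltbp1 and Ltbp2), beside 9.05% of all tested genes. Of the 7 members called, 6 were called whichever library was left out, Smad7 being the exception. All 7 were also called with the length and GC trend removed, where 8206 of 13420 genes were called.

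**Figure D2:**
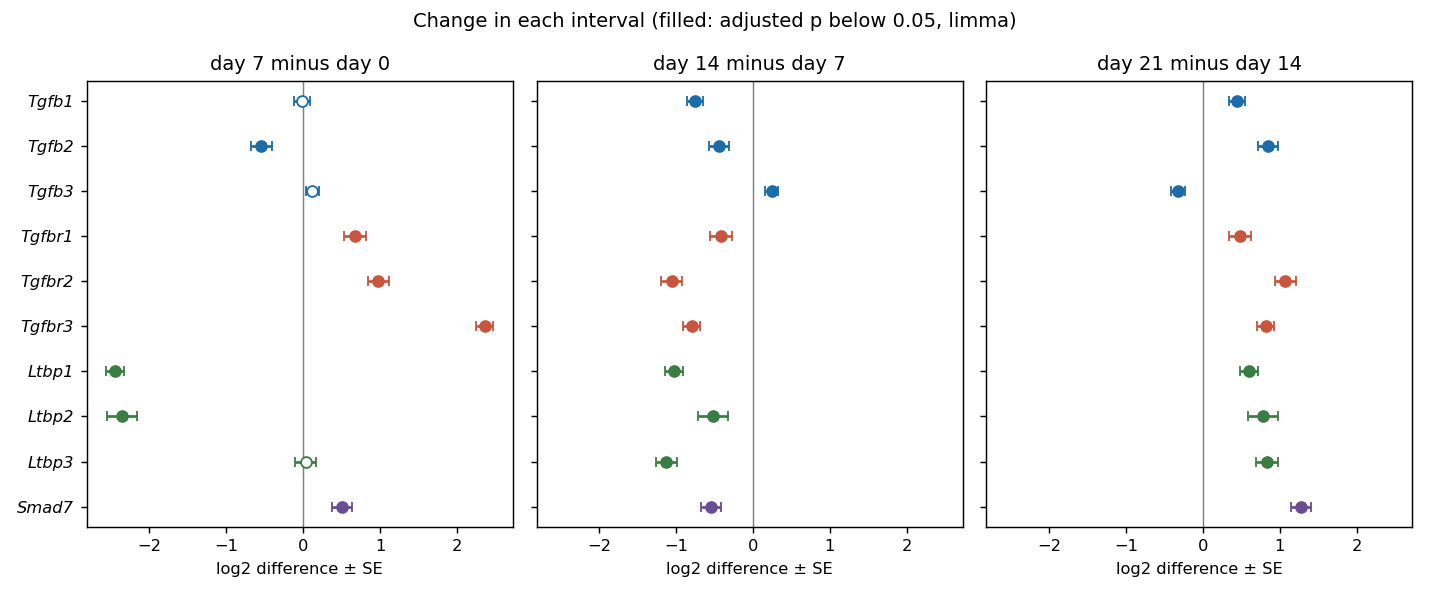
Log2 differences of the 10 genes (horizontal axes, later minus earlier time, with SE as bars) in 3 successive intervals, filled where the adjusted p is below 0.05. The first interval holds the largest changes, from -2.44 for Ltbp1 to 2.36 for Tgfbr3, the next has 9 genes below 0, and the last has the same 9 above 0, Tgfb3 going the other way in both.

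Between days 7 and 14 the direction was nearly common to the members. Tgfb3 alone rose, by a log2 difference of 0.24 (SE 0.09, limma adjusted p = 0.0325), and the other 9 fell. Of all tested genes, 52% were called between day 14 and day 7, 25% higher and 27% lower. The falls ran from -0.42 for Tgfbr1 to -1.12 for Ltbp3, with Tgfbr2 at -1.05 and Ltbp1 at -1.03. The median over the members was -0.65, beside 0.00 over all tested genes. The calls of Tgfb2, Tgfb3, Tgfbr1 and Ltbp2 were each lost when 1 library was left out. Without day 7 replicate 1 or without day 14 replicate 2 the count was 6.

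Between days 14 and 21 the same 9 genes rose and Tgfb3 fell, by a log2 difference of -0.32 (SE 0.09, limma adjusted p = 0.0138). This comparison shares its day 14 libraries with the one before it, so the return is not independent of the drop. Of all tested genes, 34.5% were called between day 21 and day 14, 20.2% higher and 14.3% lower. Smad7 rose by 1.28 (2.42-fold, limma adjusted p = 0.000104) and Tgfbr2 by 1.07 (2.11-fold, limma adjusted p = 0.000322). Tgfb2 rose by 0.85 and Ltbp3 by 0.84, with limma adjusted p of 0.000999 and 0.00139. The calls of Tgfb1, Tgfb3, Tgfbr1 and Ltbp2 were each lost when 1 library was left out, and without day 21 replicate 2 the count was 6.

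A trend with transcript length moved in the same intervals. Across all tested genes the log2 difference between day 14 and day 7 changed by -0.402 for each doubling of the longest transcript, and that between day 21 and day 14 by 0.258, whereas between day 7 and day 0 the slope was -0.0232. Against day 0 the slope was -0.425 at day 14 and -0.167 at day 21. Between the 2 libraries of a time, as replicate 2 minus replicate 1, it was -0.134 at day 14 and 0.0949 at day 21. On days 0 and 7 it was -0.0131 and -0.00345. The members are long, with a median longest transcript of 5.74 kb beside 3.36 kb for all tested genes, and 9 of 10 exceed that median. Only Tgfb1, at 2.57 kb, does not. With the trend in length and GC content removed, 6 of the 10 members were called between day 14 and day 7, beside 5637 of 13420 genes. Tgfb1 was lower by -0.89 (limma, adjusted p = 5.64e-05), and Tgfbr2, Tgfbr3, Ltbp1 and Ltbp3 were lower by -0.46, -0.35, -0.47 and -0.54. Tgfb3 was higher by 0.31 (adjusted p = 0.00641). Smad7 at -0.20, Tgfbr1 at -0.17, Tgfb2 at -0.14 and Ltbp2 at 0.16 did not pass the test, Ltbp2 with its sign turned. Between day 21 and day 14, 7 members were called after the removal, beside 3642 of 13420 genes. Smad7 at 1.05 and Tgfbr2 at 0.64 were among these members, and Tgfbr1, Ltbp1 and Ltbp2 were not. The part of transcript length in the drop and return of the members was not tested beyond these values.

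**Figure D3:**
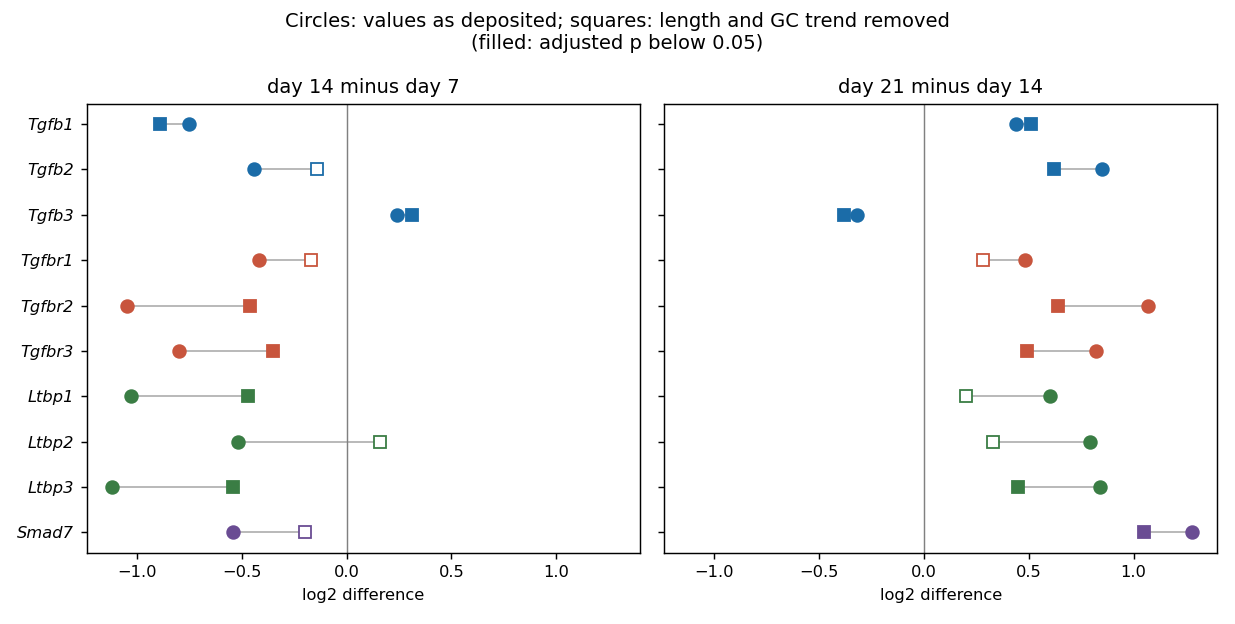
Log2 differences of the 10 genes (horizontal axes, later minus earlier time) for day 14 minus day 7 and day 21 minus day 14, as circles for the values as deposited and squares with the length and GC trend removed, filled where the adjusted p is below 0.05. Most squares lie nearer 0 than their circles, whereas those of Tgfb1 and Tgfb3 lie farther from it in both intervals.

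Set against day 0, members were called in both directions at each later time. All comparisons with day 0 share the same 2 libraries. At day 14, 2 members were higher (Tgfb3 and Tgfbr3), 5 were lower (Tgfb1, Tgfb2, Ltbp1, Ltbp2 and Ltbp3) and 3 did not pass the test, where 70.7% of all tested genes were called, 35.2% higher and 35.6% lower. At day 21, 4 were higher (Tgfbr1, Tgfbr2, Tgfbr3 and Smad7), 3 were lower (Tgfb1, Ltbp1 and Ltbp2) and 3 did not pass, where 59.4% of all tested genes were called, 29.8% higher and 29.5% lower. Tgfbr3, Ltbp1 and Ltbp2 were called in the same direction at all 3 later times. With the length and GC trend removed, all 10 members were called at day 14 against day 0, beside 9601 of 13420 genes in that setting. Tgfbr1 at 0.42, Tgfbr2 at 0.52 and Smad7 at 0.27 were then higher at all 3 later times. Tgfb1 was lower after the removal too (adjusted p = 7.47e-07), and the values of the others at day 14 were -0.73 for Tgfb2, 0.35 for Tgfb3, 1.97 for Tgfbr3, -2.93 for Ltbp1, -2.15 for Ltbp2 and -0.49 for Ltbp3.

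Between day 21 and day 7, where 8.74% of all tested genes were called, 5.46% higher and 3.28% lower, only 2 members passed the test. Smad7 was higher by a log2 difference of 0.73 (SE 0.13, 1.66-fold, limma adjusted p = 0.00556), and Ltbp1 was lower by -0.43 (SE 0.12, limma adjusted p = 0.0409). The Smad7 call was lost without day 7 replicate 1 (0.70, adjusted p = 0.076), and the Ltbp1 call was lost without any 1 of the libraries of days 0, 7 or 21. It was also lost with the replicate block (adjusted p = 0.0584), without a filter (adjusted p = 0.0678) and with the length and GC trend removed (-0.27, adjusted p = 0.0758). The 3 receptor genes differed by 0.06 or less between these times, and none of them passed the test (limma, adjusted p = 0.82 for Tgfbr1, 0.938 for Tgfbr2 and 0.931 for Tgfbr3). Tgfb1 and Tgfb2, at -0.31 and 0.41, did not pass the test (limma, adjusted p = 0.0919 and 0.0758). With the length and GC trend removed, where 3 members and 1213 of 13420 genes were called, they passed at -0.38 and 0.48 (limma, adjusted p = 0.0168 and 0.0122). They also passed without day 14 replicate 1 (adjusted p = 0.047 and 0.0242), without day 14 replicate 2 (0.0473 and 0.0239) and without both, an alternative chosen after seeing the data (0.045 and 0.0224), with 4 members called each time.

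Levels of different genes were compared as normalized counts per kb of longest transcript, a scale that assumes the longest annotated transcript is the one expressed. These values keep the length and GC trend described above. At day 0 the order began with Ltbp3 at 1342 ± 40.3 and Tgfb3 at 1130 ± 29.1, followed by Ltbp1 at 642 ± 12.9, and ended with Tgfbr1 at 66.9 ± 2.77 and Tgfbr3 at 55.2 ± 2.18 (SD, n = 2 each). Tgfb1, Tgfbr2 and Ltbp2 stood in between at 430.4, 397 and 334, and neighbours among these 3 overlapped. At day 7 Ltbp3 and Tgfb3 still led, at 1374 and 1228, and Tgfbr2 was the third at 779.6. Ltbp1 had come down to 118 and overlapped with Tgfbr1 at 107, and Ltbp2 was last at 64.8. At day 14 Tgfb3 led at 1453 with Ltbp3 at 633, and at day 21 these 2 overlapped at 1163 and 1136. Smad7 was the fourth at day 21 with 607 per kb, whereas at day 0 it stood below Ltbp2 with 256 per kb.

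The ligand sum per kb hardly moved while its makeup did. It lay between 1696 and 1820 in all 8 libraries. Tgfb3 made up 64.0 and 63.2% of it on day 0, 69.0 and 67.1% on day 7, 79.8 and 80.2% on day 14, and 70.4 and 65.9% on day 21. The receptor sum was 493 and 544 on day 0, 1177 and 1164 on day 7, 716 and 535 on day 14, and 1137 and 1247 on day 21. Tgfbr3 gave between 23.8 and 27.5% of it in every later library, against 10.9 and 10.4% at day 0. The latent binding sum was 2242 and 2395 on day 0, 1480 and 1633 on day 7, 815 and 659 on day 14, and 1121 and 1487 on day 21. Ltbp3 held 85.6 to 88.5% of it at all later times, against 58.6 and 57.3% at day 0. These shares cover the 3 listed genes of each class and leave out Ltbp4, the remaining family member. Its mean per kb was 580 on day 0, 951 on day 7, 687 on day 14 and 974 on day 21. With Ltbp4 counted, the shares of Ltbp3 would be lower and the fall of the latent binding sum after day 0 smaller. Ltbp4 was higher at day 7 than at day 0 by a log2 difference of 0.71 (limma, adjusted p = 0.0079). All 3 sums keep the length and GC trend described above, and its part in their day 14 values was not tested.

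**Figure D4:**
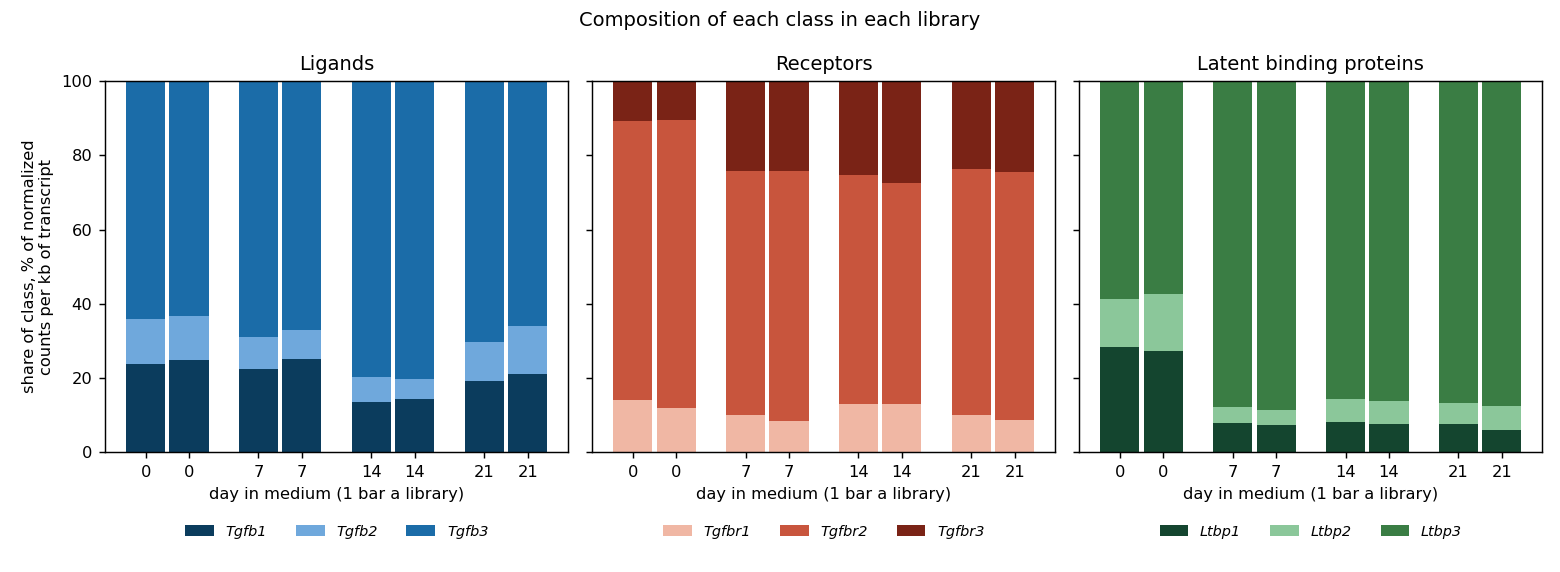
Share of each gene in its class, in percent of normalized counts per kb of transcript (vertical axis from 0 to 100), with 1 bar for each of the 8 libraries in order of day, for ligands, receptors and latent binding proteins other than Ltbp4. Tgfb3 holds 63.2 to 80.2% of the ligand sum, and the receptor and latent binding bars change between days 0 and 7 and stay close to the new makeup.

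Genes around the members were described by lists written from general knowledge, though with earlier results of these data known. Counts in the lists stand beside 27.5% higher and 27.9% lower among all tested genes at day 7 against day 0. Of 28 known response genes of TGF-beta, 6 rose, 17 fell and 5 did not pass the test between day 7 and day 0, with a median log2 difference of -1.27. Named by size, Igfbp3, a secreted carrier of insulin-like growth factors, rose by 4.93, and the smooth muscle genes Cnn1 and Tagln fell by 4.18 and 3.12. The matrix genes Ccn2 at 0.23 and Lox at -0.12 did not pass. Of 13 genes listed as negative regulators beside Smad7, 2 rose and 10 fell, with a median of -0.56. Among them is Usp15, at -0.52, a deubiquitinase that can also favour the pathway. The lists overlap, since Pmepa1, Skil, Fn1 and Itgb5 each stand among the response genes and in another list. Col1a1 and Col1a2 stand both among the response genes and among the fibroblast markers. Dcn and Lum are fibroblast markers that also stand among the matrix proteins that bind the ligand. Smad6, the inhibitory SMAD of the bone morphogenetic protein branch, rose by 1.21, Pmepa1, which sequesters receptor SMADs, fell by 1.22, the corepressor gene Tgif2 fell by 1.13, and the ubiquitin ligase gene Smurf2, at -0.02, did not pass. Of the SMADs and their partners, 6 of 7 were tested, 3 of them fell and none rose. Smad3 fell by 0.95, and the count was 1 without any 1 of the libraries of days 0 or 7.

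Upstream of the receptors, lists of the same origin held calls in both directions in the first week. Of 17 activators of the latent ligand, 6 rose and 5 fell, a count near the 55.4% of all tested genes called, with Adamts1, a secreted protease, higher by 1.93, Nrros, a myeloid carrier of latent TGF-beta, higher by 1.45, and Lrrc32, a cell-surface carrier, lower by -1.42. The integrin gene Itgb5 at -0.18 and the protease gene Mmp14 at -0.12 did not pass. Nrros is expressed in macrophages, whose markers rose in the same interval as given above, and their part in its rise was not tested. Of 10 matrix anchors of the latent complex, 3 rose and 6 fell. The fibrillin gene Fbn2, at a mean of 76.6 normalized counts at day 7 against 4.21 at day 0, rose by 3.93, Fbln1 rose by 2.46 and Fbln2 fell by 1.51. The far more abundant fibrillin gene Fbn1 was lower, at -1.21, with a mean of 15589 normalized counts at day 7 against 36023 at day 0. The fibronectin gene Fn1 was lower too, at -1.44. Of 6 matrix proteins that bind the ligand, 4 rose, led by the small proteoglycan genes Aspn at 3.03, Dcn at 1.87 and Lum at 1.50, and 2 fell. Of 6 further receptors of the superfamily, Bambi, a decoy receptor, rose by 0.46, Acvrl1 fell by 0.46 and 4 did not pass, and the count of calls was 4 with 1 or both day 14 libraries left out and 1 without day 0 replicate 1 or day 7 replicate 1.

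At day 14 against day 7, and then at day 21 against day 14, the lists differed in how many of their genes were called. At day 14 against day 7, 25% of all tested genes were higher and 27% lower. All list values given here for these 2 intervals keep the length and GC trend described above, and its part in them was not tested. The 6 SMADs and partners tested all fell at day 14, with Ep300 at -1.41, Crebbp at -1.35 and Smad3 at -1.14, and their median was -0.85. The longest transcripts of Ep300 and Crebbp are 9.57 and 10.8 kb. Of 17 activators, 13 fell and 2 rose, among them Itgav at -1.60 and Mmp9 at 4.55. Mmp9 was near the floor at day 7, with a mean of 4.07 normalized counts, against 114 at day 14. Of 13 negative regulators, 8 fell and none rose, with Ski at -0.93. The response genes were divided, 7 rising and 12 falling with a median of -0.15, led by Cthrc1 at 2.40 and Fn1 at -2.19, and Acta2 at 0.06 did not pass the test. Of 10 matrix anchors, 5 fell and none rose, and 8 were called without day 21 replicate 1 or without day 21 replicate 2. Of the 6 ligand-binding matrix proteins, 2 rose and 3 fell, with a median of -0.03. At day 21 against day 14, which shares the day 14 libraries and has 20.2% higher and 14.3% lower among all tested genes, 10 activators, 5 SMADs and partners, 8 negative regulators, 8 matrix anchors and 15 response genes rose, and 3 response genes fell. Of the 6 ligand-binding matrix proteins, 1 rose and 5 did not pass the test. The counts of SMADs and of anchors were each 3 without day 14 replicate 2 or day 21 replicate 2, and that of negative regulators was 5 and 4 without these libraries.

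**Figure D5:**
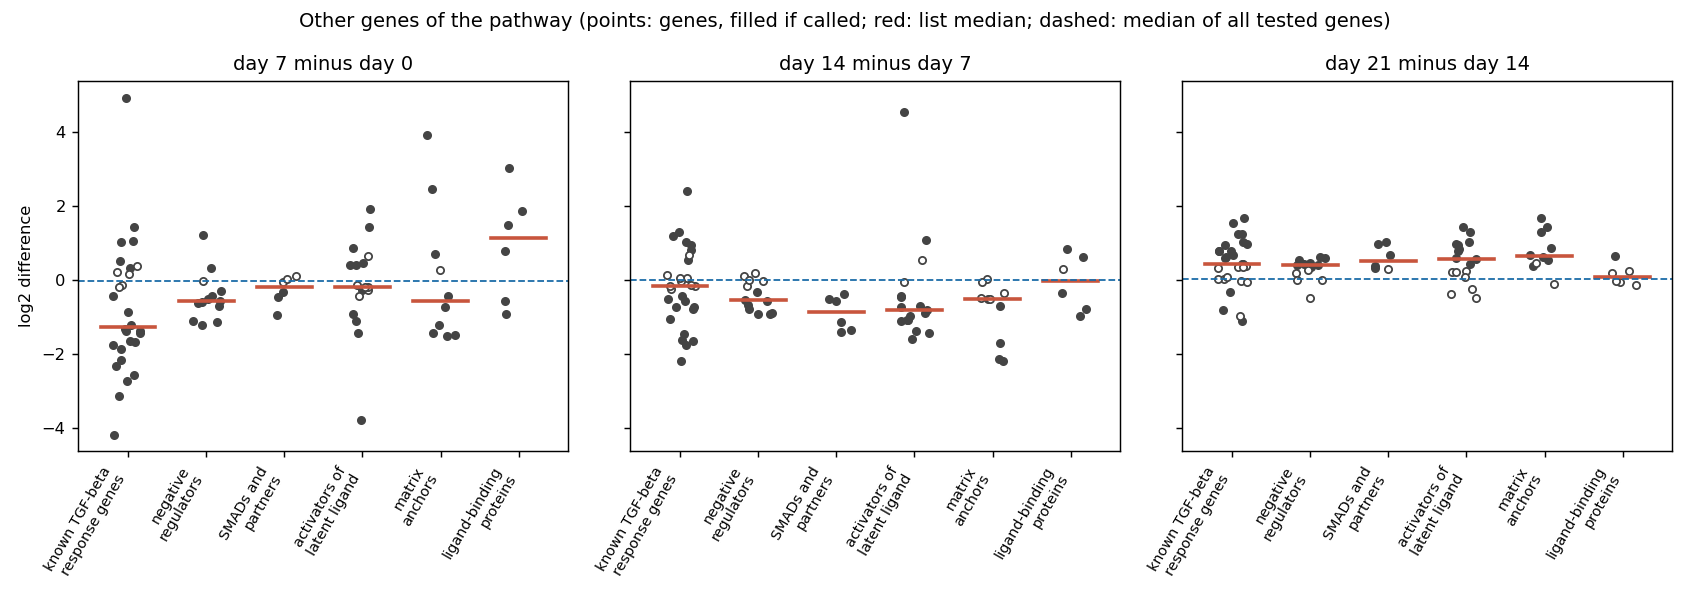
Log2 differences (vertical axis, later minus earlier time) of genes in 6 lists around the members, with a point for each gene, filled where called, a red bar at the list median and a dashed line at the median of all tested genes, for 3 successive intervals. The response genes have the lowest median in the first interval, -1.27, and the SMADs and partners the lowest in the next, -0.85. The values keep the length and GC trend.

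Likeness between the time courses of genes was measured as the root mean square difference of log2 values over the 8 libraries, each gene centred on its own mean, among 10752 candidate genes. Within a distance of 0.15, Ltbp2 and Smad7 had no gene, Ltbp1 had 1 and Tgfbr3 had 5, whereas Tgfb3 had 841. The nearest to Ltbp1 was Gareml at 0.15, and the nearest to Ltbp2 was Gtse1, a cell cycle gene, at 0.16. Tgfbr3 was most like the sodium channel gene Scn7a at 0.0786 and Ppap2b at 0.122. Tgfbr2 was most like Gas1 at 0.087 and Pdgfra, the platelet-derived growth factor receptor of fibroblasts, at 0.0884, and Tgfbr1 was most like Rdx at 0.0575. Smad7 was nearest to Igf1 at 0.157 and to the chemokine gene Cxcl12 at 0.19. Tgfb1 was nearest to Zmiz2 at 0.0303, Tgfb2 to Fosl2 at 0.0893 and Tgfb3 to Orc2 at 0.0526. Among the members themselves, the closest pairs were Tgfb1 with Ltbp3 at 0.198, Tgfbr1 with Tgfbr2 at 0.276 and Tgfb2 with Ltbp3 at 0.294. These distances describe 8 libraries at 4 times, and genes that change little come out alike more easily.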

How the data were processed

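RNA from mouse cardiac fibroblasts was sequenced in 8 libraries, 2 at each of days 0, 7, 14 and 21. The deposited signal is a normalized count (the reads of a gene over a size factor of the library) in a table by the authors with 24015 symbols. Per the submitters' processing notes the tools were DESeq without a version, HTSeq 0.6.1 and TopHat2 2.0.11, the roles of which are not recorded, and the build was mm9. Annotation and strand: not given in the sources used here. Each library's values step by 1 read, and dividing by that step gave whole reads for 100% of values within 0.01 reads.

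Tests covered the 13527 genes that reached 10 normalized counts in 2 or more libraries. Values were log2-transformed after adding 1, so fold changes of low genes are understated, and times were compared with limma 3.58.1 (trend) over all 8 libraries, with 4 residual and 8.16 prior degrees of freedom. Adjustment was by Benjamini-Hochberg over all tested genes, and calls were made at adjusted p below 0.05. The errors of levels are SDs over n = 2 libraries. Alternatives were edgeR 4.0.16 (quasi-likelihood) and DESeq2 1.42.0 on the recovered reads, other filters and pseudocounts, TMM scaling, a replicate block, only the 2 times compared, removal of the trend with length and GC content, and each library left out. Lengths and GC content came from the longest GENCODE M21 transcript, matched by symbol for 98.5% of symbols (13420 tested genes), and promoters from RefSeq on GRCm38.p6. Neither is the files' build, so no coordinates were carried between builds. The removal moved the median of all tested genes by at most -0.11, in day 21 minus day 0. All members are named, and from each other list up to 3 called genes with the largest change and up to 2 not called, preferring means of at least 50. Further genes were named where they bear on how a sum or count reads. The script was tested on simulated data with known changes. R 4.3.3, Python 3.11.15, pandas 2.3.3 and matplotlib 3.10.9 were used. The members and lists were chosen with earlier results of these data known. Some results on Ltbp3 are not reported here.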

Additional observations from a re-analysis of the deposited data

How the results depend on the processing

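Over 60 pairs of member and comparison, 1110 values under alternatives were computed. Of these, 1035 kept direction and side of the threshold, 44 no longer passed it, 14 newly passed and 17 turned sign. With the length and GC trend removed, 6 members in place of 10 were called for day 14 minus day 7, Ltbp2 turned to 0.16 there, Tgfbr2 to 0.52 and Smad7 to 0.27 for day 14 minus day 0, and Tgfb3 to -0.03 for day 21 minus day 0. Tgfb1 at day 7 against day 0 turned to 0.02 with TMM scaling and 0.03 with edgeR. Values that turned sign with 1 library left out ranged, for day 7 minus day 0, from -0.09 to 0.07 for Tgfb1 and from -0.04 to 0.11 for Ltbp3, with 0.06 for Tgfb1 without day 0 replicate 2. For day 14 minus day 0 they ranged from -0.31 to 0.16 for Tgfbr2, with 0.02 without day 0 replicate 2, and from -0.19 to 0.12 for Smad7, and for day 21 minus day 0 from -0.30 to 0.04 for Tgfb2. For day 21 minus day 7 they ranged from -0.06 to 0.19 for Tgfbr1, from -0.05 to 0.09 for Tgfbr2, from -0.07 to 0.11 for Tgfbr3 and from -0.05 to 0.60 for Ltbp2. For these the cause was not tested. Leaving out each library gave 6 to 7 called members at day 7, 7 to 8 at day 14 and 6 to 8 at day 21, all against day 0. It gave 6 to 10 for day 14 minus day 7 and for day 21 minus day 14, and 0 to 4 for day 21 minus day 7. In that last comparison 2 members were called, but 1 without a filter, 1 with the replicate block and 4 without both day 14 libraries, an alternative chosen after seeing the data. The replicate numbers did not pair the libraries (correlations of replicate differences between times from -0.0356 to 0.0737), and the block changed no other call of a member. It left the other counts of members at 7, 7, 7, 10 and 10, and 4 further receptors in place of 2 were called for day 7 minus day 0. All tested genes called for day 21 minus day 14 were 4664, but 2635 with only those times fitted and 2303 to 5750 with 1 library left out. For day 21 minus day 7 they were 1182, but 739 without a filter, 2181 without day 14 and 262 to 2173 with 1 library left out. Among lists for day 21 minus day 14, matrix anchors were called in 8 cases, but in 5 without a filter or with the trend removed. With only those times fitted, 3 SMADs and partners in place of 5 and 4 negative regulators in place of 8 were called. The lowest member had 230 reads in a library, the effect of depth on the members was not tested, and 2 libraries a time limit the precision.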
